A study of Mus musculus with 12 samples.

Results

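Soluble ErbB4 (sErbB4) is the free ectodomain of a receptor for Neuregulin 1 (Nrg1). The comparison described here is that of hippocampal cultures given 20 nM sErbB4 for 4 h with cultures given vehicle (PBS), in 3 libraries each, 6 of the 12 libraries sequenced. The libraries were taken by the treatment label alone, whereas the gene lists were chosen with earlier results of these data known. Every culture was of WT hippocampal neurons dissociated at P4 and kept for at least 8 d, with no transgene or mutant allele. According to the study both groups first received DMSO, the solvent of the inhibitor DAPT, and then sErbB4 or PBS. The other 6 libraries, 3 of cultures given 20 µM DAPT and 3 of cultures given DAPT followed by 20 nM sErbB4, serve here to estimate the spread and to ask whether the sErbB4 effect differed when γ-secretase was inhibited. The recombinant sErbB4 was an Fc fusion, and no Fc protein alone was among the groups. RNA was read in bulk with poly-A selection, so a lower share of a cell type and less RNA per cell of that type cannot be told apart.

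Nrg1 is both a ligand and a signaling protein in its own right. Type III Nrg1 stays in the membrane of the neuron that makes it, and when an ErbB receptor on a neighboring cell binds it, signals run back into the Nrg1-bearing cell. One arm acts locally through PI3K and Akt in the axon. In the other, γ-secretase cuts Nrg1 within the membrane and releases an intracellular domain that enters the nucleus and can change transcription. In the hippocampus ErbB4 is found mainly on GABAergic interneurons, whereas Nrg1 is made by granule and pyramidal neurons, and the bath-applied ectodomain stands in for the interneuron's receptor.

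The 6 libraries held from about 18700000 to about 30800000 counts on named genes, of which 36 to 44.4% were Rn45s, the ribosomal RNA precursor. Within a group, log2 levels of libraries correlated at r of 0.984 to 0.990. The first principal component (29.8% of the variance over 10879 genes) did not separate the groups and set sErbB4 replicate 1 (12.99) and vehicle replicate 3 (8.96) apart from the other 4 libraries (-9.49 to -2.22). The second (21.7%) placed the vehicle libraries at -10.2 to -2.29 and the sErbB4 libraries at 2.27 to 11.0. Transcript length moved with libraries too. Over 721 genes whose longest transcript exceeds 8 kb, the median deviation from the mean of the 6 libraries was -0.120 (log2) in sErbB4 replicate 2, against 0.073 in sErbB4 replicate 1, 0.070 in vehicle replicate 3 and -0.023 to 0.011 in the rest. The cultures held neuronal markers throughout, with Tubb3, a neuronal tubulin, at 367 to 412 CPM (counts scaled to a common library size). They also held glia, with Gfap, the astrocyte intermediate filament, at 3720.2 to 4526 CPM. Microglia markers summed to 225 to 259 CPM, and 6 of 8 endothelial markers passed the filter on low counts, the 8 summing to 7.49 to 9.82 CPM.

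Few genes changed. Of 15656 genes tested with edgeR's quasi-likelihood test, 5 (0.0319%) passed an adjusted p under 0.05 with an absolute log2 fold change (FC) above 0.32, of which 1 was higher with sErbB4 and 4 were lower. At an unadjusted p under 0.05 there were 1184 genes, 623 higher (3.98%) and 561 lower (3.58%). Without vehicle replicate 1 this number was 787. Where the mean level reached 5 CPM, the median absolute log2 FC was 0.06, and 99% of genes lay within 0.35. The median log2 FC over all genes was -0.00, with 49.1% of genes positive, and 5.49% of genes had all 3 sErbB4 libraries above all 3 vehicle libraries and 5.27% the reverse. These shares are the background against which the gene groups below are set.

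Slc30a3 was the gene called higher. It encodes ZnT3, the transporter that loads zinc into synaptic vesicles and is prominent in the mossy fiber terminals of granule neurons. The gene lies on chromosome 5 at 31086106 to 31108237 on the minus strand (GENCODE vM21, GRCm38). Vehicle libraries stood at 7.28, 7.47 and 7.46 CPM and sErbB4 libraries at 10.3, 10.5 and 9.98 CPM. The groups did not overlap, and the log2 FC was 0.47 (SE 0.06, adjusted p = 0.0186). Under DAPT the 3 libraries held 9.86, 10.1 and 10.3 CPM, and with DAPT and sErbB4 12.5, 11.9 and 10.9 CPM (log2 FC 0.22, SE 0.05, unadjusted p = 0.00237, adjusted p = 0.33).

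Zfp791 encodes a zinc finger protein of a large family of related sequences and lies on chromosome 8 at 85108553 to 85123095 on the minus strand. It stood at 342, 389.7 and 344 CPM with vehicle and at 231, 191 and 204 CPM with sErbB4. All 3 sErbB4 libraries were below all vehicle libraries, with a log2 FC of -0.78 (SE 0.09, adjusted p = 0.0186). With γ-secretase inhibited, the log2 FC was -0.08 (SE 0.09, adjusted p = 0.87). Whether it shares reads with related zinc finger genes was not tested, so its level is uncertain.

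Cox20, which encodes an assembly factor of cytochrome c oxidase, stood at 13.6, 17.2 and 12.8 CPM with vehicle and at 8.25, 8.04 and 8.06 CPM with sErbB4 (log2 FC -0.83, SE 0.10, adjusted p = 0.0186). The groups did not overlap. All DAPT libraries, with or without sErbB4, were lower still, at 5.94 to 7.36 CPM, and sErbB4 made a difference of 0.10 there (SE 0.11, adjusted p = 0.868). Cox20 lies on chromosome 1 at 178319130 to 178322693 on the plus strand, and 804 of its 883 exonic bases (91.1%) are also exonic in Hnrnpu on the opposite strand, so its counts are uncertain. Hnrnpu, an RNA-binding protein gene, had a log2 FC of 0.06 (SE 0.10, unadjusted p = 0.565).

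Htd2 and Gm15787 were listed at 0 in all 3 sErbB4 libraries. Htd2, which encodes a dehydratase of mitochondrial fatty acid synthesis, held 48 to 83 counts per vehicle library (3.13, 2.70 and 3.78 CPM). With a floor of 3 counts per library, its listed counts were at least 28.3-fold lower with sErbB4 (adjusted p = 0.000376). This bound covers counting error only and not the division of reads between genes. Htd2 held 2.65, 3.40 and 3.27 CPM with DAPT and 2.44, 3.11 and 4.13 CPM with DAPT and sErbB4. In RefSeq the gene has the same span as Rpp14, a ribonuclease P subunit gene (chromosome 14, 8080313 to 8091846, plus strand). Rpp14 moved the other way, from 17.0, 15.5 and 15.8 CPM to 19.7, 20.4 and 21.7 CPM (log2 FC 0.35, SE 0.07, unadjusted p = 0.000248, adjusted p = 0.228). The sum of both genes was 20.2, 18.2 and 19.6 CPM with vehicle and 19.7, 20.4 and 21.7 CPM with sErbB4, and these ranges overlap. How the authors' counting divided reads between the pair is not given in the sources used here, so the value of either gene alone is uncertain. Gm15787, a noncoding transcript on chromosome 5 that shares 427 of its 2992 exonic bases with Chfr on the opposite strand, fell from 10 to 14 counts per library to 0 (at least 4.85-fold lower, adjusted p = 0.046).

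**Figure D1:**
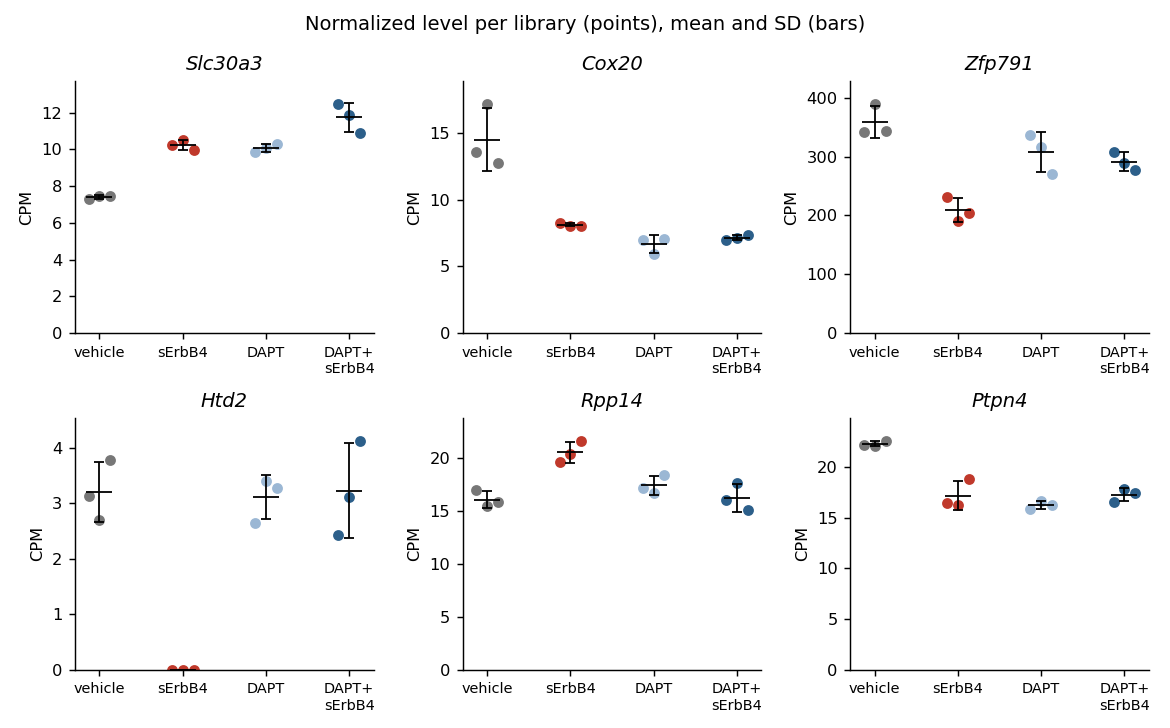
Normalized level in CPM (y axis, from 0) of 6 genes in each of the 3 libraries of the 4 groups (points), with the mean and SD (bars). Slc30a3 is higher and Cox20, Zfp791 and Ptpn4 are lower in all sErbB4 than in all vehicle libraries, and Htd2 is at 0 in the sErbB4 libraries only while Rpp14, from the same locus, is higher in them.

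The calls rested on the spread pooled over all 12 libraries. Htd2 was called without any single library (adjusted p at most 0.00321), whereas the adjusted p of Slc30a3 was 0.0529 to 0.13 without any 1 of the 6 libraries compared or DAPT+sErbB4 replicate 2, that of Cox20 0.0506 to 0.0969 without vehicle replicate 1, any sErbB4 library or DAPT+sErbB4 replicate 2, that of Zfp791 0.0506 to 0.0969 without vehicle replicate 1 or 2, sErbB4 replicate 2 or 3 or DAPT+sErbB4 replicate 2, and that of Gm15787 0.11 to 0.206 without any single library.

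The genes of smallest p below the threshold are given here as values, first those higher with sErbB4. Rbfox3, which encodes the neuronal nuclear antigen NeuN, stood at 21.1, 23.0 and 22.0 CPM with vehicle and at 26.2, 26.2 and 28.5 CPM with sErbB4 (log2 FC 0.29, SE 0.05, adjusted p = 0.104). Itpka, a kinase of inositol trisphosphate found in dendritic spines, differed by 0.50 on the log2 scale (SE 0.08, adjusted p = 0.104), from 7.75, 8.65 and 8.10 CPM to 10.7, 10.9 and 13.05 CPM. Syp, the vesicle protein synaptophysin, held 229.8, 237 and 233 CPM with vehicle and 262, 262 and 261 CPM with sErbB4, a small difference with little spread (log2 FC 0.17, SE 0.03, adjusted p = 0.189). For Rims1, which organizes the site of release, the log2 FC was 0.24 (SE 0.04, adjusted p = 0.228), for Stum 0.32 (SE 0.06, adjusted p = 0.143), for Uchl3, a ubiquitin hydrolase, 0.25 (SE 0.05, adjusted p = 0.303), and for Lsm3, a component of the spliceosome, 0.28 (SE 0.06, adjusted p = 0.303). For each of these 7 genes all sErbB4 libraries were above all vehicle libraries.

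In the lower direction the nearest was Ptpn4, a protein tyrosine phosphatase, at 22.2, 22.1 and 22.6 CPM with vehicle and 16.5, 16.3 and 18.8 CPM with sErbB4 (log2 FC -0.38, SE 0.06, adjusted p = 0.0591). Without sErbB4 replicate 3 its log2 FC was -0.45 with an adjusted p = 0.00902, which would be a call. Adamts1, a secreted metalloprotease, held 58.2, 56.1 and 58.7 CPM and then 48.5, 49.0 and 51.3 CPM (-0.22, SE 0.04, adjusted p = 0.104). Lamc1, the laminin γ1 chain of basement membranes, held 64.6, 63.8 and 65.0 CPM and then 58.9, 54.0 and 54.2 CPM (-0.21, SE 0.04, adjusted p = 0.305). Nes, the progenitor intermediate filament nestin, held 112, 113 and 115 CPM and then 102, 101 and 103 CPM (-0.15, SE 0.03, adjusted p = 0.379). Entpd2, an ectonucleotidase of progenitors and glia (-0.38, SE 0.08, adjusted p = 0.303), Slf2, which acts in genome maintenance (-0.26, SE 0.05, adjusted p = 0.305), Plce1, a phospholipase C (-0.19, SE 0.04, adjusted p = 0.381), and Micall2 (-0.27, SE 0.06, adjusted p = 0.381) complete the 10 with the values given. In each of them the groups did not overlap.

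Genes of presynaptic vesicle release stood higher with sErbB4 more often than genes at large. Of 23 members, all tested, 0 were called, 20 had a positive log2 FC (49.1% over all genes), 15 were higher and 1 lower at an unadjusted p under 0.05 (3.98% and 3.58% over all genes), and 14 did not overlap between groups in the higher direction (5.49% over all genes). Their median log2 FC was 0.13. The levels of all 23 summed to 2131, 2245 and 2262 CPM with vehicle and 2393, 2406 and 2511 CPM with sErbB4, with no overlap.

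Among the vesicle proteins, Vamp2, the vesicle SNARE, stood at 225, 244 and 243 CPM with vehicle and 246, 266 and 267 CPM with sErbB4 (log2 FC 0.13, SE 0.04, unadjusted p = 0.0121). Rab3a, a vesicle GTPase, had a log2 FC of 0.11 (SE 0.05, unadjusted p = 0.0407), and Syn1, which tethers vesicles to actin, one of 0.11 (SE 0.04, unadjusted p = 0.0324). The member lower at this threshold was Slc17a6, the vesicular glutamate transporter VGLUT2, at 7.40, 7.14 and 5.92 CPM and then 6.00, 5.91 and 5.604 CPM (-0.22, SE 0.09, unadjusted p = 0.0306). Among genes of the active zone and of fusion, Snap25, a SNARE of the plasma membrane, held 137, 149.7 and 155 CPM and then 161, 173 and 185 CPM (0.23, SE 0.05, unadjusted p = 0.0013). Unc13a, which primes vesicles, had the largest log2 FC of the list and a wide spread (29.9, 41.0 and 43.3 CPM against 65.6, 47.7 and 56.5 CPM, log2 FC 0.57, SE 0.14, unadjusted p = 0.00134). Cplx2, a complexin, was at 171, 179 and 178 CPM and then 175, 187 and 216 CPM, and these overlap (0.13, SE 0.07, unadjusted p = 0.0748).

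**Figure D2:**
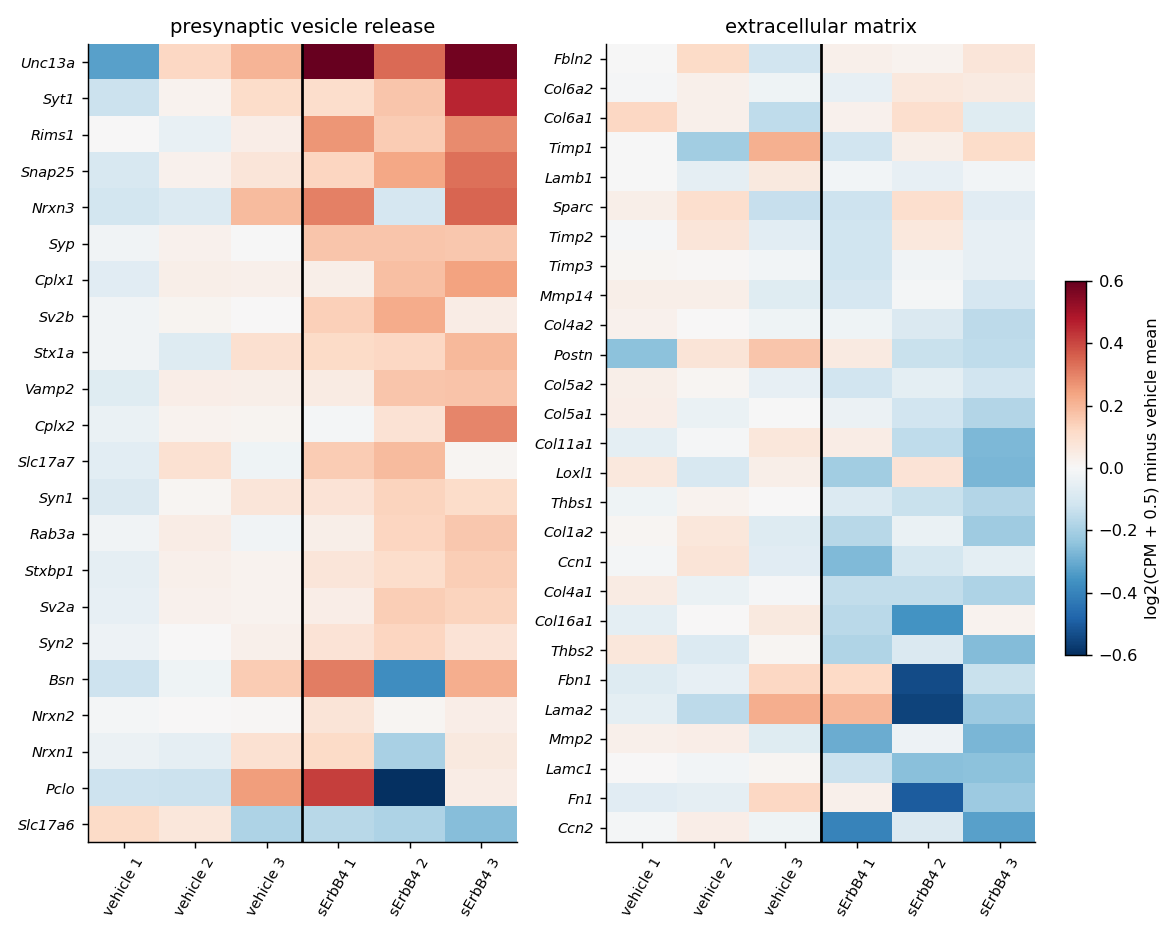
Level of tested members of the vesicle release list (left) and of the extracellular matrix list (right) in the 6 libraries, as log2(CPM + 0.5) minus the mean of the vehicle libraries, with colors clipped at -0.6 and 0.6. Most vesicle release genes are red in all sErbB4 columns and most matrix genes are blue, and long genes such as Pclo, Bsn, Fn1 and Lama2 are low in sErbB4 replicate 2.

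The count depended on the libraries. Without vehicle replicate 1 it was 6 of 23 at the same threshold with 20 positive, without sErbB4 replicate 3 it was 10 with 19 positive, and without both sErbB4 replicate 1 and vehicle replicate 3 it was 15 with 20 positive. Over the 19 members whose longest transcript is at most 8 kb, 18 were positive with a median of 0.131.

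Because these genes leaned the same way, promoters are shown for the called vesicle gene and for 2 members of the list. The sequences are the 250 bases before a start site in RefSeq (GRCm38.p6), each 5′ to 3′ on the gene's strand. Capitals mark the GC box GGGCGG in Slc30a3 and Syp and TTCAGCACC, the left part of the RE1 element bound by the repressor REST, in Syn1. Slc30a3 has more than 1 start site in the table, and the one shown is that at chr5:31093528-31093777 on the minus strand. This window lies inside the GENCODE span of the gene, and its other start sites are not shown. Syp is at chrX:7638330-7638579 on the plus strand and Syn1 at chrX:20920919-20921168 on the minus strand.
Slc30a3: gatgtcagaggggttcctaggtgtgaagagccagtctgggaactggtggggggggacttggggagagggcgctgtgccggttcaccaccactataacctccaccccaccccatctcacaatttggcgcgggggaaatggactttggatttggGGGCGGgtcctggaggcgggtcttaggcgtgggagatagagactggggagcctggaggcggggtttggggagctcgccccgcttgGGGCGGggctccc
Syp: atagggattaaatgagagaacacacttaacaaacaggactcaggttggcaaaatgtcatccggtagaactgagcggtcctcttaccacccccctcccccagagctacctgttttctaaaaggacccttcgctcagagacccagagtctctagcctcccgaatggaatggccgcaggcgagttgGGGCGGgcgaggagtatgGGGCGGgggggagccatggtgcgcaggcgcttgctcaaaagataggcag
Syn1: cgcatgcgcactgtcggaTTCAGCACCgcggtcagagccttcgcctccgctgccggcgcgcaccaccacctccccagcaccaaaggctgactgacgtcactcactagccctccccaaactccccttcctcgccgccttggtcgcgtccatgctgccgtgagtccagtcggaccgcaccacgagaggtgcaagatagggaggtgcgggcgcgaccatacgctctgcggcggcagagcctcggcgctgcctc

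Over windows of 300 bases (250 before to 50 after the start) and both strands, the RE1 part was found in 2 of the 17 vesicle release genes with a promoter in the table, Syn1 and Unc13a, and in 0.433% of 27025 genes. The GC box was in 14 of the 17 (82.4%), in 16 of 20 extracellular matrix genes (80%) and in 38.2% of the 27025 genes. The cAMP response element TGACGTCA was in 1 of the 17, Syn1, in 1 of 12 interneuron genes, Sst, in 0 of 20 matrix genes and in 2.03% of the 27025 genes. These 27025 are all genes with a promoter in the table and not only the 15656 tested. No share over the genes tested was taken. A match is a string of letters and not a measured site.

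GABAergic interneuron genes were also mostly higher. Of 15 members, all tested, 0 were called, 13 were positive and 2 negative (49.1% positive over all genes). At an unadjusted p under 0.05, 8 were higher and 0 lower (3.98% and 3.58% over all genes). The groups did not overlap for 4 members in the higher and 1 in the lower direction (5.49% and 5.27% over all genes). The median log2 FC was 0.21, and the members named below are all positive ones. Sst, the peptide somatostatin, held 132, 144 and 145 CPM with vehicle and 153, 158 and 161 CPM with sErbB4 (log2 FC 0.16, SE 0.06, unadjusted p = 0.0181). Gad1, which makes GABA, held 46.5, 51.6 and 54.1 CPM and then 51.3, 59.3 and 80.7 CPM (0.33, SE 0.13, unadjusted p = 0.0251), where sErbB4 replicate 3 is high and the ranges overlap. The peptide Npy (0.21, SE 0.09, unadjusted p = 0.0323), the calcium binding protein Calb2 (0.17, SE 0.07, unadjusted p = 0.0438) and the peptide Cck (0.30, SE 0.10, unadjusted p = 0.00982) had like values. Lhx6, a transcription factor of interneurons from the medial ganglionic eminence, was at 3.72, 3.48 and 3.73 CPM and then 4.79, 4.88 and 7.65 CPM (0.65, SE 0.17, unadjusted p = 0.00294). The summed levels were 498, 535 and 573 CPM with vehicle and 575, 595 and 651 CPM with sErbB4. The number higher at this threshold was 2 without vehicle replicate 1, with 12 positive, 3 without sErbB4 replicate 3, with 11 positive, and 9, with 1 lower, without both sErbB4 replicate 1 and vehicle replicate 3.

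Other neuronal groups leaned the same way with smaller values. Of 24 glutamate receptor and postsynaptic density genes 19 were positive and 5 higher at an unadjusted p under 0.05 (median log2 FC 0.07), among them the kinase subunits Camk2a (0.19, SE 0.05, unadjusted p = 0.00178) and Camk2b (0.15, SE 0.04, unadjusted p = 0.00249), the scaffold Dlg4, or PSD-95 (0.12, SE 0.04, unadjusted p = 0.0149), and the AMPA receptor subunit Gria1 (0.15, SE 0.04, unadjusted p = 0.00313). Camk2a held 158, 170.4 and 169 CPM with vehicle and 186, 184 and 197 CPM with sErbB4. The NMDA receptor subunit Grin1 overlapped between groups (0.06, SE 0.06, unadjusted p = 0.37). Of 25 voltage-gated ion channel genes 19 were positive and 5 higher (median 0.09). The number higher was 1 without vehicle replicate 1, 3 without sErbB4 replicate 1 or 3, and 9 without sErbB4 replicate 2. Without sErbB4 replicate 1, 15 of the 25 were positive and 1 was lower. Of 11 GABA-A receptor genes 9 were positive and 3 higher, with Gabra5 at 0.16 (SE 0.05, unadjusted p = 0.00885). Without vehicle replicate 1, 1 was higher, and without sErbB4 replicate 1, 5 were higher and 1 lower. Of 14 immature neuron genes 9 were positive and 6 higher (median 0.07), and 3 were higher without vehicle replicate 3 or without sErbB4 replicate 3. Stmn2, a tubulin-binding protein of growth cones, held 353, 363 and 374 CPM and then 379, 410.0 and 418 CPM (0.15, SE 0.04, unadjusted p = 0.00491). Gap43, another growth cone protein, had a log2 FC of 0.16 (SE 0.04, unadjusted p = 0.00403), Tubb3 one of 0.12 (SE 0.05, unadjusted p = 0.0341) and Stmn1 one of 0.09 (SE 0.04, unadjusted p = 0.0244), whereas Tubb2b had 0.04 (SE 0.09, unadjusted p = 0.679). Dentate granule cell markers were 5 of 10 positive and dendrite and cytoskeleton genes 8 of 16 positive, both close to the share over all genes.

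Extracellular matrix genes stood lower. Of 28 listed genes 27 were tested, 24 were negative, 8 were lower and 0 higher at an unadjusted p under 0.05, 7 did not overlap in the lower direction (5.27% over all genes), and the median log2 FC was -0.12. Ccn2, a matricellular growth factor, held 108, 112 and 107 CPM with vehicle and 82.4, 102 and 86.8 CPM with sErbB4 (-0.26, SE 0.07, unadjusted p = 0.00307). Col4a1, the basement membrane collagen, held 96.5, 90.6 and 92.8 CPM and then 84.1, 84.2 and 81.8 CPM (-0.16, SE 0.04, unadjusted p = 0.00268). The metalloproteinase inhibitors Timp3 (-0.06, SE 0.04, unadjusted p = 0.178) and Timp2 (-0.03, SE 0.05, unadjusted p = 0.51) and the collagen-binding Sparc (-0.03, SE 0.07, unadjusted p = 0.657) differed little. The number lower was 5 without vehicle replicate 1, 4 without vehicle replicate 2 and 11 without both sErbB4 replicate 1 and vehicle replicate 3. Over 23 members with transcripts of at most 8 kb, 3 were positive and the median was -0.099. All 9 tested markers of pericytes, smooth muscle and fibroblasts, none of them in the matrix list, were negative as well (median -0.12). Of these, 1 was lower at an unadjusted p under 0.05 and 2 did not overlap in the lower direction. The 11 genes listed include matrix genes too (Dcn, Lum, Col1a1 and Col3a1), so the 2 lists are alike in part.

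**Figure D3:**
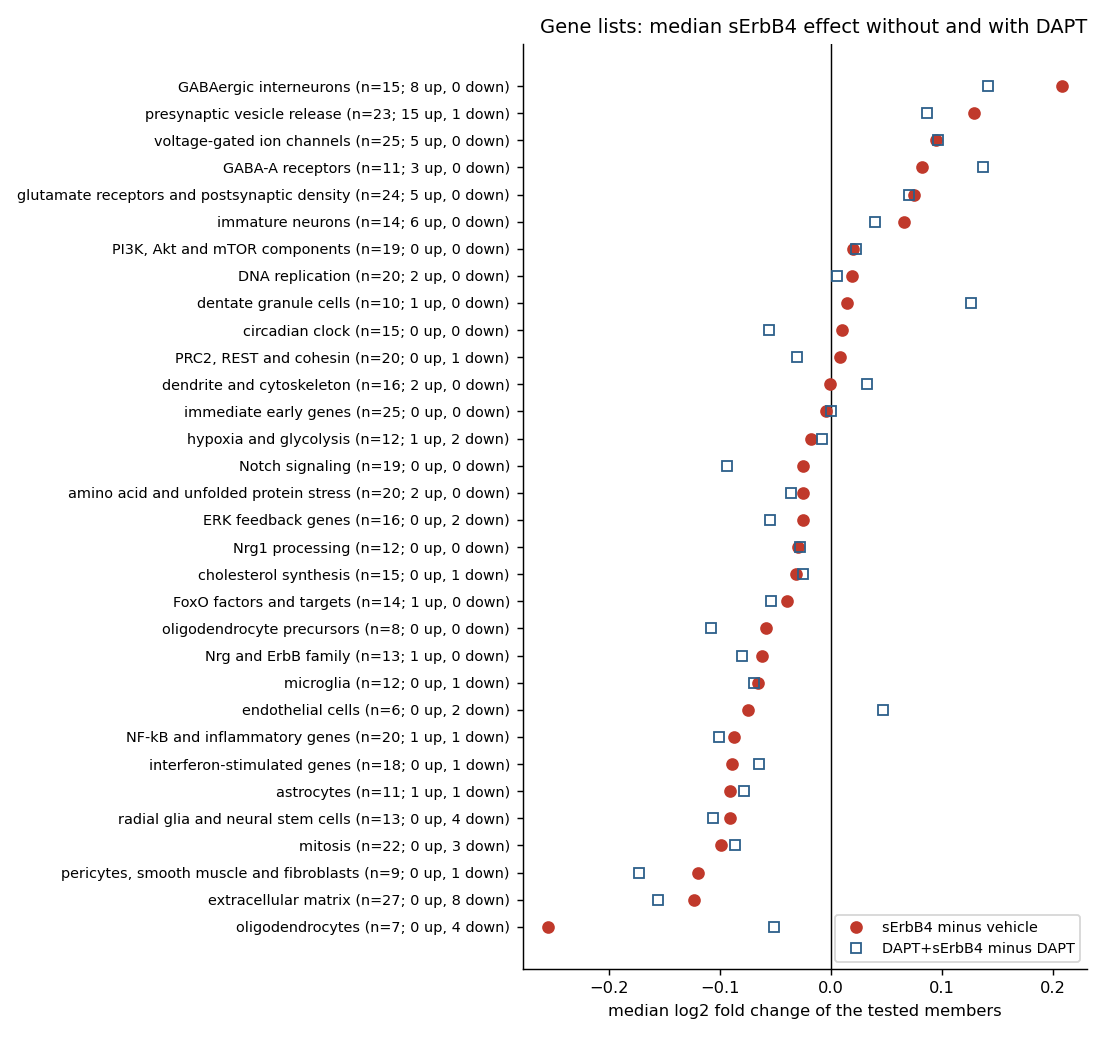
Median log2 FC of the tested members of each of 32 gene lists (x axis) for sErbB4 minus vehicle (filled circles) and DAPT+sErbB4 minus DAPT (open squares), with the number tested and the numbers higher (up) and lower (down) at an unadjusted p under 0.05 without DAPT in the labels. The interneuron, vesicle release, ion channel, GABA-A receptor, glutamate receptor and immature neuron lists lie at the top, from 0.07 to 0.21, the dentate granule cell (0.01) and dendrite (-0.00) lists lie near 0, and oligodendrocyte, matrix, mural, mitosis and radial glia lists at the bottom, down to -0.26.

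Glial and progenitor markers followed the same direction as the matrix. Of 13 radial glia and neural stem cell genes 11 were negative and 4 lower, 0 higher, at an unadjusted p under 0.05 (median -0.09). Vim, vimentin, held 1177, 1180.2 and 1111 CPM and then 989, 1159 and 956 CPM (-0.16, SE 0.06, unadjusted p = 0.0251), and Prom1, prominin 1, 12.9, 12.3 and 11.6 CPM and then 10.2, 10.8 and 10.3 CPM (-0.24, SE 0.06, unadjusted p = 0.00252). Fabp7 (-0.08, SE 0.05, unadjusted p = 0.175), Slc1a3 (-0.06, SE 0.04, unadjusted p = 0.186) and Ptprz1 (-0.02, SE 0.05, unadjusted p = 0.74), which are abundant in radial glia and astrocytes, overlapped between groups. Of 11 astrocyte genes 10 were negative (median -0.09). Gfap held 4526, 4221 and 3942 CPM and then 3720.2, 3927 and 3724 CPM (-0.16, SE 0.05, unadjusted p = 0.00602), while Aldoc, a glycolytic enzyme of astrocytes, was the member of opposite sign (200.2, 188 and 195 CPM, then 229, 216 and 231 CPM, log2 FC 0.21, SE 0.05, unadjusted p = 0.00108). Glul (-0.07, SE 0.05), Slc1a2 (-0.11, SE 0.05) and Sparcl1 (-0.04, SE 0.04) had unadjusted p-values of 0.235, 0.0518 and 0.375.

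All 7 oligodendrocyte genes tested were negative, 4 of them lower at an unadjusted p under 0.05 (median -0.26). Cnp, a myelin phosphodiesterase, had a log2 FC of -0.23 (SE 0.08, unadjusted p = 0.0124), Mbp, myelin basic protein, one of -0.26 (SE 0.13, unadjusted p = 0.0668), and Cldn11, a tight junction protein of myelin, one of -0.17 (SE 0.12, unadjusted p = 0.185). The number lower was 1 without vehicle replicate 1 and 2 without sErbB4 replicate 3. Of 22 mitosis genes 18 were negative and 3 lower, Ube2c (-0.26, SE 0.09, unadjusted p = 0.0153), Cenpf (-0.23, SE 0.08, unadjusted p = 0.0269) and the cell cycle kinase Cdk1 (-0.27, SE 0.09, unadjusted p = 0.0182). This number was 0 without vehicle replicate 2 and 1 without sErbB4 replicate 3. Top2a (-0.10, SE 0.07), Prc1 (-0.05, SE 0.08) and Cdc20 (-0.16, SE 0.08) did not reach the threshold, and 12 of 20 DNA replication genes were positive, against 6 of 20 without sErbB4 replicate 3. Of 6 endothelial markers tested 3 were negative and 2 lower, and 0 were lower without any 1 vehicle library or without sErbB4 replicate 1 or 3. The part of cell number in the values of neuronal, glial, matrix and progenitor genes was not tested.

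**Figure D4:**
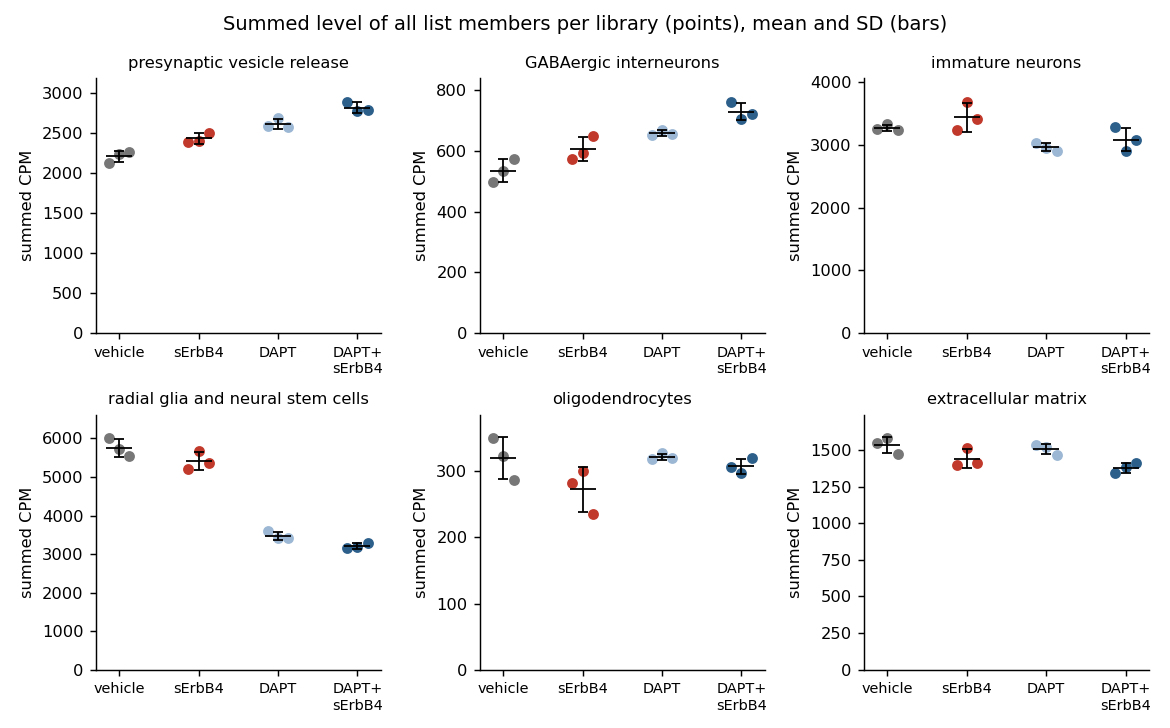
Summed level in CPM (y axis, from 0) of all members of 6 gene lists in each of the 3 libraries of the 4 groups (points), with the mean and SD (bars). With sErbB4 the vesicle release sum is above vehicle in all 3 libraries, and the oligodendrocyte, radial glia and matrix sums overlap between the groups.

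No gene of the Nrg1 pathway was called. Of 17 genes of the Nrg and ErbB family 13 passed the filter, 3 were positive, and 1 was higher and 0 lower at an unadjusted p under 0.05. Without vehicle replicate 3, 8 of 15 were positive, without sErbB4 replicate 2, 2 were higher and 1 lower, and without sErbB4 replicate 3, 0 were higher and 2 lower. Among ligands, Nrg1 held 7.87, 7.81 and 9.10 CPM with vehicle and 8.65, 7.63 and 7.49 CPM with sErbB4 (log2 FC -0.06, SE 0.09, unadjusted p = 0.499). Nrg3, the ligand of cortical and hippocampal projection neurons, held 4.81, 5.00 and 6.23 CPM and then 6.40, 5.94 and 6.95 CPM, which overlap (0.26, SE 0.11, unadjusted p = 0.0337). Nrg2 had a log2 FC of 0.02 (SE 0.08), Hbegf -0.06 (SE 0.09), Tgfa -0.08 (SE 0.05) and Btc, at under 0.5 CPM, -0.09 (SE 0.45). Among receptors, Erbb4 held 5.28, 5.67 and 6.28 CPM and then 6.32, 4.66 and 7.32 CPM (0.08, SE 0.14, unadjusted p = 0.585). Erbb2, the partner that binds no ligand, held 7.05, 7.36 and 7.42 CPM and then 6.32, 6.58 and 6.50 CPM, without overlap (-0.17, SE 0.07, unadjusted p = 0.0728). Erbb3 (-0.18, SE 0.23) and Egfr (-0.09, SE 0.05) overlapped between groups. Lrig1, a negative regulator of ErbB receptors, held 165, 165 and 160.1 CPM and then 152, 159.8 and 157 CPM, without overlap but with a small difference (-0.06, SE 0.04, unadjusted p = 0.14). Rnf41, which marks ErbB3 for degradation (-0.08, SE 0.09), and Errfi1, an inhibitor of the receptor kinases (-0.01, SE 0.04), overlapped between groups.

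Of 12 genes of the enzymes that cut Nrg1, all tested, 0 had an unadjusted p under 0.05, and the groups overlapped for each of them. Without vehicle replicate 2, 1 was higher, and without vehicle replicate 3, 1 was lower. Among the sheddases, Adam10 had a log2 FC of -0.04 (SE 0.06), Adam17 of -0.02 (SE 0.05), Bace1 of -0.02 (SE 0.04), Adam19 of 0.10 (SE 0.06) and Bace2 of -0.18 (SE 0.08, unadjusted p = 0.117). Bace1, which cuts Type III Nrg1, held 41.0, 41.9 and 42.0 CPM with vehicle and 40.7, 41.7 and 40.6 CPM with sErbB4. Among the γ-secretase subunits, Psen2 (-0.03, SE 0.05), Ncstn (-0.06, SE 0.05), Aph1a (-0.03, SE 0.06), Aph1b (-0.01, SE 0.06), Aph1c (-0.11, SE 0.11) and Psenen (-0.09, SE 0.07) were within 2 SE of 0.

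No gene of the lists of fast signaling responses was called. Of 25 immediate early genes, which neurons transcribe within minutes to hours of activity, all were tested, 11 were positive and 0 had an unadjusted p under 0.05 in either direction (median log2 FC -0.00). This depended on the libraries, since 4 were lower and 8 positive without sErbB4 replicate 3, 2 were higher and 1 lower without vehicle replicate 3, 2 were higher without sErbB4 replicate 2 and 1 was higher without sErbB4 replicate 1. Jun, a subunit of AP-1, held 86.1, 83.7 and 84.8 CPM with vehicle and 82.8, 81.8 and 82.9 CPM with sErbB4 (-0.04, SE 0.03, unadjusted p = 0.212), without overlap, while Jund had -0.06 (SE 0.04), the synaptic pentraxin Nptx2 -0.01 (SE 0.09) and the neurotrophin Bdnf -0.04 (SE 0.07). Of 16 feedback genes of the ERK pathway 0 were higher and 2 lower, Spry1 (27.5, 30.2 and 28.9 CPM, then 24.2, 25.7 and 27.1 CPM, log2 FC -0.17, SE 0.06, unadjusted p = 0.0165) and Phlda1 (-0.16, SE 0.06, unadjusted p = 0.0322), with 5 positive. Without sErbB4 replicate 3, 4 were lower and 1 was positive, without sErbB4 replicate 1, 0 were lower and 10 positive, and the number lower was 0 without vehicle replicate 2 and 1 without vehicle replicate 1. The ERK phosphatase Dusp6 (-0.05, SE 0.06), the inhibitor Spry2 (0.00, SE 0.05), the ETS factor Etv5 (-0.03, SE 0.06) and Ccnd1, cyclin D1 (-0.11, SE 0.09), overlapped between groups. Of 19 genes of Notch signaling, another pathway that γ-secretase serves, 7 were positive and 0 had an unadjusted p under 0.05, with the target Hey1 at -0.02 (SE 0.05), the glycosyltransferases Lfng at -0.04 (SE 0.06) and Rfng at 0.02 (SE 0.06), and the receptor Notch2 at -0.15 (SE 0.12). Without sErbB4 replicate 1, 10 of the 19 were positive and 2 lower, and without sErbB4 replicate 2, 1 was lower.

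Whether the sErbB4 effect depended on γ-secretase was tested as the difference between sErbB4 minus vehicle and DAPT+sErbB4 minus DAPT, which share no library. One gene was called, Htd2 (1 of 15656, 0.00639%), and 565 had an unadjusted p under 0.05. The value of Htd2 alone is uncertain, since it shares its span with Rpp14. The sum of both genes was 18.2 to 21.7 CPM over all 12 libraries. How reads were divided between them was not tested. With DAPT present, sErbB4 gave 0 calls by edgeR (0%), 1442 genes at an unadjusted p under 0.05 and a smallest adjusted p = 0.0795, while DESeq2 gave 8 calls and limma 1. The differences of smallest p among genes that reached 5 CPM on average were those of Eln, Cox20, Ptpn4, Zfp791 and Atp5c1. Eln, elastin, had a log2 FC of 0.09 without and -0.34 with DAPT (difference 0.43, SE 0.07, adjusted p = 0.268). For Cox20 the difference was -0.93 (SE 0.15, adjusted p = 0.268), for Ptpn4 -0.47 (SE 0.08, adjusted p = 0.281), for Zfp791 -0.70 (SE 0.13, adjusted p = 0.351), and for Atp5c1, a subunit of ATP synthase, -0.25 (SE 0.05, adjusted p = 0.665). None of these 5 passed. For Slc30a3 the difference was 0.25 (SE 0.08, unadjusted p = 0.0152, adjusted p = 0.9999) and was not called.

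For most gene groups the values with DAPT had the same sign. The median log2 FC of the vesicle release list was 0.13 without and 0.09 with DAPT (20 of 23 positive in both), that of interneuron genes 0.21 and 0.14, that of extracellular matrix genes -0.12 and -0.16 (with DAPT, 1 of 27 positive), and that of radial glia genes -0.09 and -0.11 (with DAPT, 0 of 13 positive). The oligodendrocyte median was -0.26 without and -0.05 with DAPT, and 0 of its 7 genes differed between the conditions at an unadjusted p under 0.05. Syp (0.17 and 0.21), Stmn2 (0.15 and 0.15), Adamts1 (-0.22 and -0.25), Lamc1 (-0.21 and -0.19) and Ccn2 (-0.26 and -0.27) had close log2 FC without and with the inhibitor. So had Stum (0.32 and 0.27) and Uchl3 (0.25 and 0.21). Rims1 (0.24 and 0.03) and Unc13a (0.57 and -0.13) did not. Their differences had unadjusted p-values of 0.00614 and 0.00345, and neither was called (adjusted p = 0.9999 for Rims1). Rbfox3 (0.29 and 0.10), Itpka (0.50 and 0.30), Lsm3 (0.28 and 0.11) and Entpd2 (-0.38 and -0.13) were also nearer to 0 with DAPT. Nes (-0.15 and -0.25) was further from 0. These genes are examples of those named, and none of their differences was called. Across the 10888 genes that averaged 5 CPM or more, the 2 sets of log2 FC correlated at a Pearson r of 0.260 and a Spearman rho of 0.348 across genes, which are not independent replicates. Of 966 such genes with an unadjusted p under 0.05 without DAPT, 804 (83.2%) had the same sign with DAPT and 263 had the same sign with an unadjusted p under 0.05 there, against 61.8% of the same sign over all of them.

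**Figure D5:**
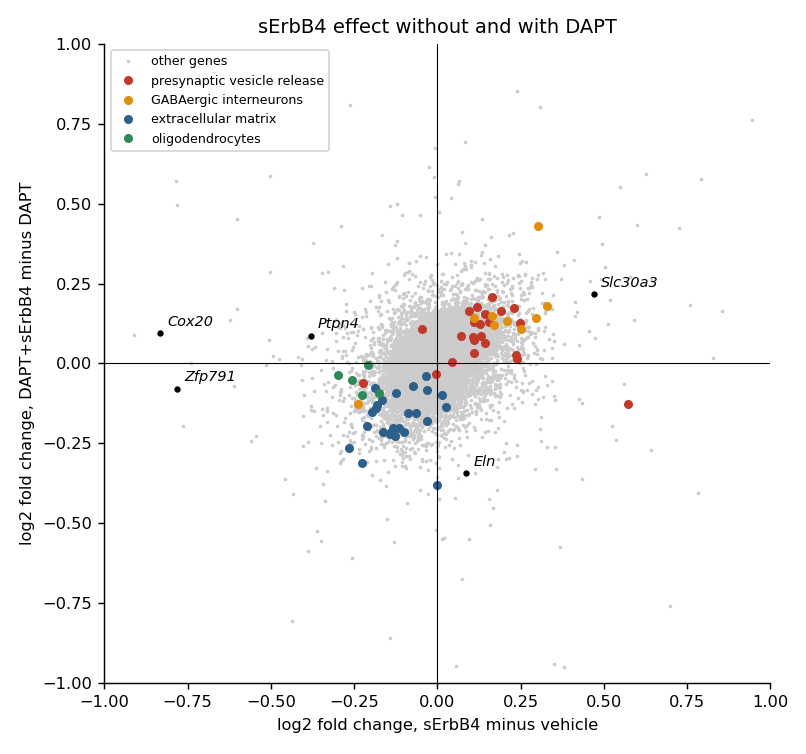
Log2 FC of sErbB4 minus vehicle (x axis) against DAPT+sErbB4 minus DAPT (y axis) for the 10888 genes averaging 5 CPM or more (21 lie outside the axes), with members of 4 lists in color and 5 genes named. Vesicle release and interneuron genes lie mostly at the upper right and matrix genes at the lower left, while Cox20, Zfp791 and Ptpn4 are low on the x axis and near 0 on the y axis.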

How the data were processed

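RNA was taken 4 h after sErbB4 from P4 cultures. According to the study's methods and the submitters' processing notes, the authors trimmed reads (Trimmomatic), aligned them to mm10 (HISAT2), assembled them (StringTie) and took gene values with IsoformSwitchAnalyzeR. Versions are not given in the sources used here. What the authors deposited are estimated counts of each gene, without normalization. Of 21312 loci, 1976 without a gene name (43.4 to 51.8% of a library's counts) were left out. The rest were rounded, filtered by filterByExpr (15656 genes), scaled by TMM and tested in edgeR 4.0.16 (R 4.3.3) by the quasi-likelihood test with a mean for each of 4 groups (8 residual degrees of freedom) and Benjamini-Hochberg adjustment. CPM were taken on the TMM-scaled total. The SE printed is the absolute log2 FC divided by the square root of the test's F statistic. For some genes, such as Bace2 and Erbb2, this SE is small beside the p-value, and the p-value is the measure to read. The lower limit on the FC (0.32 on the log2 scale) is the study's.

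Members and lists were chosen with earlier results of these data known. Genes were named as called, as the 10 of smallest p per direction (mean of at least 5 CPM), as the 4 highest of a list, as the whole Nrg lists, or as the 5 of smallest p for the difference. Htd2, Gm15787 and the list members named for a low p were chosen after their values were seen. According to the study's methods each condition had 3 platings from mice of several litters, but the labels do not tie libraries to platings, so p-values measure the spread between these libraries. Same-numbered vehicle and sErbB4 libraries did not deviate together (r of -0.301, -0.112 and -0.669 over 2000 genes), and for DAPT and DAPT+sErbB4 r was 0.209, 0.320 and -0.065, so libraries were treated as unpaired. Transcript lengths and positions are from GENCODE vM21, and 10715 of 10879 genes had a length. The floor of 3 counts covers counting error only. Alternatives used DESeq2 1.42.0, limma 3.58.1 on log2(CPM + 2), other filters and scalings, and single libraries left out. The scripts were tested on simulated data. Some genes that the naming rule selects are not reported here, but remain in the counts of their lists.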

Additional observations from a re-analysis of the deposited data

Results flagged for a closer look

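Htd2 was singled out because its sErbB4 effect differed between cultures without and with DAPT. The fitted difference was -9.41 on the log2 scale (adjusted p = 0.00156, edgeR quasi-likelihood test), a value that depends on the prior count because the gene is at 0 in the 3 sErbB4 libraries. All 3 vehicle, all 3 DAPT and all 3 DAPT+sErbB4 libraries held at least 2.44 CPM. The sum with Rpp14 at the same locus was 18.2 to 21.7 CPM in the 6 libraries compared. The part of read assignment was not tested.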

How the results depend on the processing

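With a mean of at least 5 CPM required, 3 genes were called for sErbB4 against vehicle and 0 for the difference, with only the 6 libraries fitted 0 were called (845 at an unadjusted p under 0.05), and DESeq2 called 18 (8 higher, 10 lower) and 4. Other size factors, no filter, unrounded counts, Rn45s left out, loci without a name kept, limma, no limit on FC and an adjusted p under 0.1 gave 4 to 7 calls. With the replicate number as a block 2 were called, Htd2 and Zfp791, and 0 of the 6 libraries were closest to their own number. Leaving out 1 library gave 1 to 5 calls, 1 to 3 for the difference, and 787 to 1612 genes at an unadjusted p under 0.05. Without both sErbB4 replicate 1 and vehicle replicate 3, 6 were called (3 of them shared with the 5), and the log2 FC of Hbegf turned to 0.029, Errfi1 to 0.028, Aph1b to 0.023, Nptx2 to 0.013 and Bdnf to 0.031, and with loci without a name kept Errfi1 was at 0.00073. Of 109 genes named, 25 changed sign in some alternative, all of them uncalled. Over single libraries left out, log2 FC ran from Grin1 -0.021 to 0.098, Nrg2 -0.059 to 0.095, Adam17 -0.058 to 0.027, Psen2 -0.063 to 0.014, Aph1a -0.077 to 0.021, Rfng -0.027 to 0.074, Sparc -0.10 to 0.021, Timp2 -0.087 to 0.0070, Prc1 -0.088 to 0.028, Nptx2 -0.098 to 0.067, Hey1 -0.057 to 0.016, Ptprz1 -0.059 to 0.035, Nrg1 -0.13 to 0.013, Btc -0.39 to 0.17, Errfi1 -0.034 to 0.041, Bdnf -0.073 to 0.0012, Spry2 -0.020 to 0.045, Hbegf -0.18 to 0.039, Aph1b -0.080 to 0.034, Etv5 -0.063 to 0.013, Dusp6 -0.11 to 0.0059, Tubb2b -0.067 to 0.099, Erbb4 -0.074 to 0.25, Adam10 -0.062 to 0.0052 and Lfng -0.12 to 0.027. The cause was not tested. List counts without single libraries, and by transcript length, were added after seeing the data. At 10 to 14 counts per library (Gm15787) or 48 to 83 (Htd2) a value rests on few reads.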

Other observations

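Of 19 PI3K, Akt and mTOR components 13 were positive and 0 had an unadjusted p under 0.05 (1 lower without sErbB4 replicate 1). Of 14 FoxO factors and targets 1 was higher and 0 lower, with 0 higher without any 1 vehicle library or sErbB4 replicate 3, and 1 lower without vehicle replicate 2 or any 1 sErbB4 library. Of 20 PRC2, REST and cohesin genes 1 was lower, against 0 without vehicle replicate 2 or 3 and, with 1 higher, without sErbB4 replicate 1. Of 15 circadian clock genes 0 had an unadjusted p under 0.05, against 2 lower without vehicle replicate 3 and 1 lower without any 1 sErbB4 library.

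Of 15 cholesterol synthesis genes 6 were positive and 1 was lower. Without sErbB4 replicate 1, 9 were positive and 2 higher with 0 lower, without sErbB4 replicate 2, 3 were lower, and without vehicle replicate 1 or 3, 0 were lower. Stress response genes had 2 higher and 0 lower of 20, against 0 higher and 3 lower without sErbB4 replicate 2, 0 higher without vehicle replicate 3 or sErbB4 replicate 3, and 1 higher without vehicle replicate 1 or 2. Hypoxia and glycolysis genes had 4 positive, 1 higher and 2 lower of 12. Without sErbB4 replicate 1, 7 were positive, the number higher was 0 without vehicle replicate 1 or 2 or sErbB4 replicate 1 or 3, and the number lower was 1 without any 1 vehicle library or sErbB4 replicate 3.

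NF-kB and inflammatory genes had 16 of 20 negative with 1 higher and 1 lower. Without sErbB4 replicate 1, 11 of 21 were positive and 0 higher, without sErbB4 replicate 2, 3 were lower, without vehicle replicate 1, 2 were higher and 0 lower, and without sErbB4 replicate 3, 2 were higher. Interferon-stimulated genes had 14 of 18 negative with 1 lower, against 1 higher and 2 lower without sErbB4 replicate 1. Oligodendrocyte precursor markers had 7 of 8 negative with 0 at this threshold, against 4 negative and 2 lower without sErbB4 replicate 1 and 1 lower without vehicle replicate 2 or 3 or sErbB4 replicate 3. Microglia markers had 8 of 12 negative with 0 higher and 1 lower. Without vehicle replicate 1, 5 were negative and 0 lower, without sErbB4 replicate 1 or 3, 0 were lower, without vehicle replicate 3 or sErbB4 replicate 2, 2 were lower, and 1 was higher without sErbB4 replicate 1 or 2.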
